A study of Mus with 6 samples.

Results

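The 6 genes described here are Slc4a1, Aqp1, Car1, Car2, Epor and Gata1, which encode proteins of the red cell membrane and cytoplasm and regulators of the erythroid lineage. They were chosen by gene symbol in the platform annotation, with the intensities of these same arrays already known. Their values in the 2 groups are therefore given as a description with no test. They are 6 of the 19057 genes named on the array and have 10 of its 45281 probes, of which 9 read above an intensity of 32 on at least 1 array.

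RNA was measured on 6 one-colour Illumina bead arrays, 3 labelled WT and 3 labelled KO. WT arrays held wild-type leukaemic cells, and KO arrays held Klf4-deficient leukaemic cells. Both groups carried the p210 form of BCR-ABL, the kinase fusion that drives chronic myeloid leukaemia (CML), were labelled C57BL/6 and were taken from CML bone marrow 14 days after transplantation. Cells were sorted for green fluorescence, absence of lineage markers, and presence of Sca-1 and c-Kit (LSK), a phenotype of stem and early progenitor cells. The Klf4 allele, any Cre driver, the recipients and the number of mice per array are not stated in the labels used here. Where samples of a group did not come from separate mice, their spread may be technical.

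An erythroid cell matures under erythropoietin, which binds the receptor encoded by Epor, and under GATA1, the zinc finger factor that drives globin, haem and membrane genes together with KLF1 and TAL1. The mature red cell carries carbon dioxide as bicarbonate. Carbonic anhydrases, of which Car1 and Car2 encode the main red cell isoforms, hydrate carbon dioxide in the cytosol. Band 3, encoded by Slc4a1, exchanges the bicarbonate for chloride across the membrane and anchors the membrane skeleton. Aquaporin-1, encoded by Aqp1, is the water channel of the same membrane. Several of these genes are not restricted to erythroid cells. Gata1 is also used by megakaryocytes, mast cells, basophils and eosinophils, Aqp1 by endothelium, and Car2 by many tissues.

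Intensities are on a linear scale, background subtracted and scaled before deposit, so they can be negative. Values below 32 were set to this floor before the log2 was taken, and a floored value sets only an upper limit of 32. The number of arrays limits the precision. WT replicate 3 stood apart from the other arrays. It correlated with them at Pearson r of 0.29 to 0.30 across the 18270 probes above the floor on at least 1 array, which are not independent replicates, while the other 5 correlated with each other at 0.66 to 0.72. Of 1332 probes above 100 on all 5 other arrays, 590 (44.3%) were at the floor in WT replicate 3. The same count for each of the other arrays was 3 to 10 of 678 to 700 probes (0.442% to 1.44%). These sets are smaller because their probes also had to exceed 100 in WT replicate 3. The members' differences are therefore given with and without WT replicate 3. Klf4 itself gave no check of the labels: of its 3 probes, 2 were at the floor on every array, and ILMN_2999439 exceeded it only in WT replicate 2 (51.9).

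**Figure D1:**
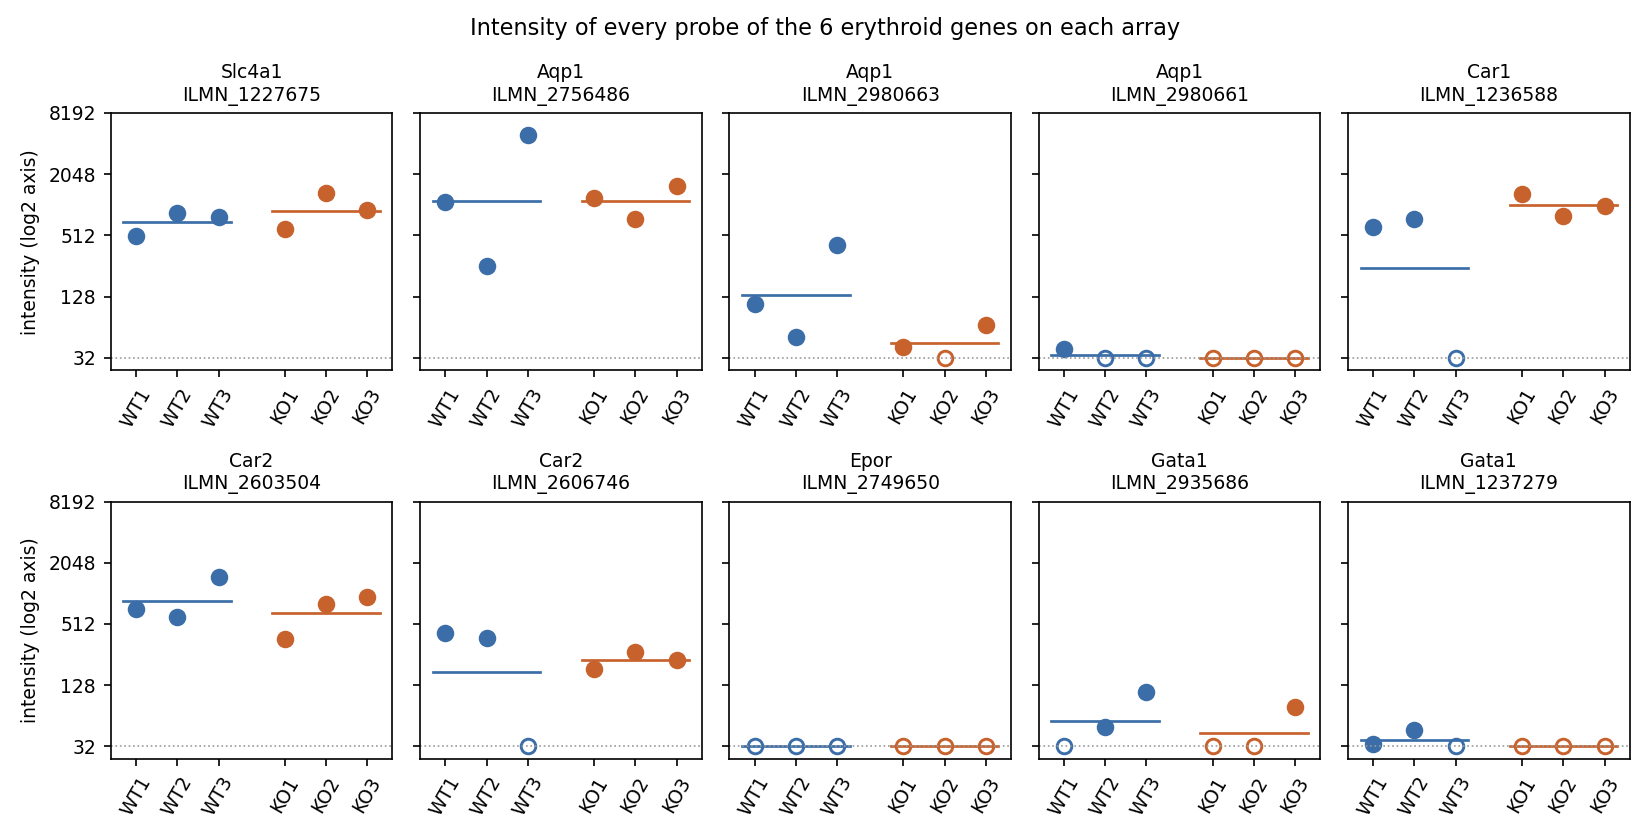
Intensity (vertical log2 axis) of all 10 probes of the 6 genes on the 3 WT arrays (blue) and the 3 Klf4-deficient arrays (orange). Filled points lie above the floor of 32 (dotted line), open points at or below it are drawn on it, and horizontal lines are group means of the floored log2 values. Slc4a1 read 505.2 or more on every array, Epor lay at the floor throughout, and WT3 was highest on 4 probes and at the floor on Car1 and on the second Car2 probe.

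Band 3 was read well above the floor on every array. The Slc4a1 probe (ILMN_1227675, RefSeq NM_011403) read 505.2, 850.9 and 779.5 in WT replicates 1 to 3. In Klf4-deficient replicates 1 to 3 it read 585.8, 1341.7 and 900.0. The groups overlapped, with the lowest value in WT replicate 1 and the highest in Klf4-deficient replicate 2. Mean intensities were 712 ± 183 in WT and 943 ± 380 in Klf4-deficient arrays (SD, n = 3 each). On the log2 scale the Klf4-deficient mean was higher by 0.36 ± 0.39 (SE), or 1.28-fold, a difference smaller than its error. Without WT replicate 3 it was 0.44 ± 0.48. The 3 WT arrays agreed within 1.68-fold and the 3 Klf4-deficient arrays within 2.29-fold.

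Car1, carbonic anhydrase 1, was the member with the largest difference over all 6 arrays, though not without WT replicate 3, where Aqp1 and Car2 probes differed by more. Its single probe (ILMN_1236588, NM_009799) read 624.1, 738.3 and 16.5 in WT. It read 1301.1, 793.8 and 1006.2 in Klf4-deficient arrays. All 3 Klf4-deficient values lay above all 3 WT values, and WT replicate 3 lay at the floor. The difference was 2.05 ± 1.31 (log2, SE), or 4.13-fold with the floored value, which understates the distance to WT replicate 3. Without that array the difference was 0.58 ± 0.30, or 1.49-fold, and the 3 Klf4-deficient values remained above both WT values. Car1 was the 1 of 9 member probes with all Klf4-deficient arrays above all WT arrays, where 2.13% of all probes tested were so placed (389 of 18270). No member probe lay wholly below WT, against 0.958% of all probes (175). The rule that chose these genes knew these values, so nothing is read from that count.

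Car2, carbonic anhydrase 2, had a pair of probes for the same transcript (NM_009801) that differed in direction. Probe ILMN_2603504 read 721.7, 601.6 and 1486.2 on WT arrays and 364.3, 798.8 and 934.0 on Klf4-deficient ones. Probe ILMN_2606746 read 412.9, 373.9 and -7.0 on WT arrays and 184.3, 269.3 and 227.3 on Klf4-deficient ones. WT replicate 3 was thus the highest of the 6 arrays on the former probe and at the floor on the latter. The groups overlapped on both probes. The differences were -0.42 ± 0.53 and 0.40 ± 1.08 (log2, SE). Without WT replicate 3 the former was -0.025 ± 0.50. The latter turned to -0.81 ± 0.25, or 1.75-fold lower in Klf4-deficient arrays, whose 3 values then lay below both WT values.

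On the 5 arrays without WT replicate 3, 2 member probes lay wholly below WT, that Car2 probe and a Gata1 probe described below, and 1, Car1, lay wholly above. Over the 14950 probes tested on the remaining 5 arrays, 5.1% lay wholly below and 3.36% wholly above. In the RefSeq gene list for GRCm38.p6, Car1 stands between Car13 and Car3, and Car2 follows Car3, so the 4 genes are neighbours. Car3 and Car13 were at the floor on every array.

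Aqp1, the aquaporin-1 gene, had 3 probes for 1 transcript (NM_007472) with different patterns. Probe ILMN_2756486 read 1094.3, 253.7 and 5026.4 on WT arrays and 1199.5, 733.8 and 1565.7 on Klf4-deficient ones. All 6 values lay above the floor, and both the lowest and the highest were WT arrays, 19.8-fold apart, against 2.13-fold among Klf4-deficient arrays. The difference was -0.006 ± 1.13 (log2, SE) with all arrays. It was 1.08 ± 0.77 without WT replicate 3, or 2.11-fold higher in Klf4-deficient arrays, -1.08 without WT replicate 2 and 0.29 without Klf4-deficient replicate 2, so its direction rested on which arrays were kept.

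Probe ILMN_2980663 of Aqp1 read 108.4, 50.6 and 413.6 on WT arrays and 40.5, 22.0 and 66.7 on Klf4-deficient ones. Every WT array lay above the floor, as did 2 of the 3 Klf4-deficient arrays, and the groups overlapped between 50.6 and 66.7. The difference was -1.57 ± 0.84 (log2, SE), or 2.97-fold lower in Klf4-deficient arrays, and -0.74 ± 0.52 without WT replicate 3. Probe ILMN_2980661 exceeded the floor only in WT replicate 1, at 39.0, and ran from -2.9 to 17.4 on the other arrays. Without WT replicate 3, ILMN_2756486 and ILMN_2980663 thus differed in sign for the same gene, and the cause was not tested.

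**Figure D2:**
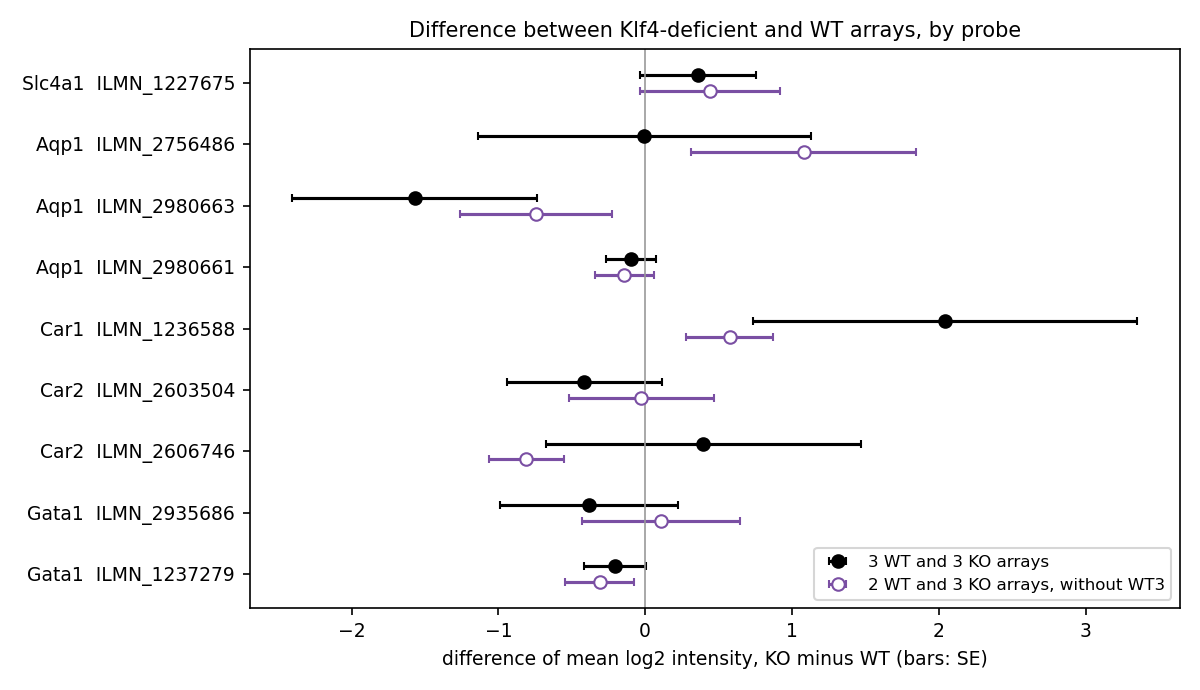
Difference of mean log2 intensity, Klf4-deficient minus WT, for the 9 probes above the floor on at least 1 array, with bars of 1 SE from limma. Filled black points use all 6 arrays and open purple points leave out WT3. Car1 moved from 2.05 to 0.58, the second Car2 probe from 0.40 to -0.81 and the first Aqp1 probe from -0.006 to 1.08.

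The regulators of the lineage were near or below the floor. Epor, the erythropoietin receptor gene, was at the floor on every array. Its probe (ILMN_2749650, NM_010149) read 9.5, 1.1 and 6.4 on WT arrays and 13.9, 2.5 and 2.0 on Klf4-deficient ones. It therefore gave no fold and entered no fit. Whether the transcript was absent or below the reach of this probe cannot be told apart.

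Gata1 had 2 probes for the same transcript (NM_008089), and neither was above the floor on more than 3 of the 6 arrays. Probe ILMN_2935686 read 20.0, 49.8 and 110.4 on WT arrays and 10.5, 5.2 and 77.7 on Klf4-deficient ones. It exceeded the floor on 2 WT arrays and 1 Klf4-deficient array, with overlapping groups. The difference was -0.38 ± 0.61 (log2, SE) and 0.11 ± 0.54 without WT replicate 3. Probe ILMN_1237279 read 33.7, 46.7 and -4.0 on WT arrays and 0.2, 14.0 and 17.2 on Klf4-deficient ones. No Klf4-deficient array exceeded the floor, nor did WT replicate 3, so its difference of -0.21 ± 0.21 depends on the floor and was -0.84 with a floor of 16. Without WT replicate 3 it was -0.31 ± 0.23, and both WT values, 33.7 and 46.7, then lay just above the Klf4-deficient floor.

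Over the 9 probes, 3 had a higher and 6 a lower Klf4-deficient mean, with a median difference of -0.10 (log2). Over all 18270 probes tested, 8374 (45.8%) were higher and 9895 (54.2%) lower, with a median of -0.055. Without WT replicate 3, the 9 split into 4 higher and 5 lower with a median of -0.02, and 3 of them had changed sign. The changes of sign were those of Aqp1 ILMN_2756486, Car2 ILMN_2606746 and Gata1 ILMN_2935686. All probes then had a median of 0.055, with 54.9% higher. At the probe of each gene with the highest mean, 2 of 5 were higher and 3 lower over all arrays (median -0.01). Without WT replicate 3, 4 of those 5 were higher and 1 lower (median 0.44). On 4 of the 9 probes WT replicate 3 was the highest array and on 2 the lowest, while over all probes it was highest on 29.2% and lowest on 9.91%. Each of the other arrays was highest on 13.2% to 15.7% of all probes and lowest on 1.11% to 1.49%.

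In sorted bulk RNA, fewer cells of a type and less RNA per cell cannot be told apart. Markers of cell types that share these genes were therefore summed for each array, counting values at the floor as 0. Mast cell and basophil markers, 8 named of 8, were read on every array. Their sum was 4582.0 to 9493.9 in WT and 5389.5 to 8238.2 in Klf4-deficient arrays, with Hdc, Cpa3, Mcpt8 and Tpsb2 above the floor on all 6 arrays and Ms4a2 on none. Megakaryocyte markers, 8 named of 10, summed to 219.1 to 1420.9 in WT and 458.6 to 1192.7 in Klf4-deficient arrays. Of these, Gp1bb, Gp6, Ppbp, Vwf and Treml1 were at the floor throughout. Gp9 made most of the sum on every array except WT replicate 3. It read 157.8, 1307.8 and -9.7 on WT arrays and 1132.3, 607.9 and 415.6 on Klf4-deficient ones. The Gp9 difference was 1.81 (log2), while those of Pf4 and Itga2b were -1.05 and -0.87. Without WT replicate 3 they were 0.54, -0.91 and -0.015.

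Eosinophil markers, 6 named of 6, summed to 0 on every WT array and to 67.8 to 140.6 on Klf4-deficient arrays. The sum came from Prg2, a granule protein gene, at 67.8, 43.9 and 110.3, and from Epx at 96.7 in Klf4-deficient replicate 2, while Prg3, Siglecf, Il5ra and Ccr3 were at the floor throughout. Prg2 had an adjusted p of 0.715 in limma. It lay wholly above WT, as did 2.13% of all probes tested. Endothelial markers, 8 named of 8, summed to 47.5 to 194.4 in WT and 0 to 74.6 in Klf4-deficient arrays, with Cdh5, Tek, Esam and Eng at the floor on every array. Their part in the Car1 and Aqp1 differences was not tested. Of the LSK gate and stem cell markers, 7 of 8 were named, with Ly6a not analysed here. Between 1 and 4 of the 7 exceeded the floor on any array. The gate gene Kit did so on WT replicate 3 (381.5) and Klf4-deficient replicates 1 and 3 (118.1 and 63.1).

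The genes whose pattern over the 6 arrays was most like that of a member are given as a description, since 2 of 3802 genes were taken for each member by their correlation. Slc4a1 was matched most closely by Cdc42se1 (Pearson r = 0.967) and Slc25a5, the mitochondrial ADP/ATP carrier (0.964), and these were 0.982 and 0.964 without WT replicate 3. Car1 was matched by H1f4, a linker histone gene (0.997), and Rangap1, the activator of the Ran GTPase (0.995), with 0.915 and 0.906 without that array. H1f4 read -7.5 and Rangap1 12.2 in WT replicate 3, so both shared its floored value with Car1. Car2 (ILMN_2603504) was matched by Eif2b4 (0.982) and Snx1 (0.98), each at 0.975 without WT replicate 3. Aqp1 (ILMN_2756486) was matched by Epc1 (0.971) and Dusp11 (0.965), at 0.938 and 0.94 without it. Gata1 (ILMN_2935686) was matched by Cdk5r1 (0.995) and Adipor1 (0.993), at 0.993 and 0.998 without WT replicate 3. Gata1 and Cdk5r1 were both at the floor in WT replicate 1 and Klf4-deficient replicates 1 and 2. Adipor1 was at the floor in WT replicate 1 and Klf4-deficient replicate 1. These correlations therefore rest partly on shared floored values. None of these 10 genes was in the erythroid lists below.

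The other erythroid genes and the relatives of the members were then compared between the groups, each at its probe with the highest mean. Of 105 genes in 10 lists, 93 had a named probe and 65 were tested. By limma with Benjamini-Hochberg adjustment over all probes, 0 of the 65 were called at an adjusted p under 0.05. Over all 18270 probes 0 were called (0%), with the lowest adjusted p at 0.319. An unadjusted p under 0.05 was reached by 3 of the 65 and by 371 of all probes, 266 higher and 105 lower in Klf4-deficient arrays. Leaving out WT replicate 3 turned that split to 180 higher and 352 lower, of 532 probes, with 0 called by limma. Of the 65, 31 were higher and 34 lower, with a median difference of -0.01 (log2). Without WT replicate 3, genes above the floor only on that array dropped out. Of the rest, 32 were higher and 20 lower, with a median of 0.14. Over all probes 54.9% were then higher, with a median of 0.055.

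Of 7 named globin genes, which encode the chains of haemoglobin, 4 (Hba-a1, Hbb-b2, Hbb-bs and Hbb-bt) were above the floor on all 6 arrays. The embryonic genes were dim, with Hba-x and Hbb-bh1 at the floor everywhere and Hbb-y above it only in WT replicate 3 (37.9). Of 5 tested, 4 had a higher and 1 a lower Klf4-deficient mean (median 0.87 log2, and 0.43 over 4 without WT replicate 3). Hba-a1 read 686.2, 1996.1 and 74.5 on WT arrays and 1515.8, 1762.7 and 1691.6 on Klf4-deficient ones, a difference of 1.82 that became 0.50 without WT replicate 3. Hbb-bt read 662.1, 2014.8 and 559.8 on WT arrays and 1779.7, 1792.5 and 1937.4 on Klf4-deficient ones, and its difference of 1.02 was 0.67 with WT replicate 3 left out. On both genes the Klf4-deficient arrays lay close together and within the WT range, and the adjusted p was 0.715. The beta globin genes are close copies of each other, so their probes may share signal.

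Haem synthesis enzymes split, with 3 higher and 4 lower of 7 tested (median -0.45, and 0.07 without WT replicate 3). Alas2, the erythroid enzyme of the first step, was at the floor on all WT arrays and at 172.0, 114.1 and 160.7 in Klf4-deficient arrays. It was at least 4.58-fold higher, with an adjusted p of 0.595 in limma, the lowest of the 65. Urod, uroporphyrinogen decarboxylase, differed the other way, with 452.8, 140.3 and 235.6 in WT against 63.4, 74.9 and 94.2 in Klf4-deficient arrays (difference -1.69, adjusted p 0.715). Alad, the enzyme of the second step, was also lower on all 3 Klf4-deficient arrays, 86.2 to 162.2 against 287.5, 239.9 and 1996.1 in WT replicates 1 to 3. Its difference of -2.14 (adjusted p 0.715 in limma) was -1.16 without WT replicate 3. Alad lies outside the naming rule and was singled out after its values were seen. Of the 7 tested, 1 lay wholly above WT and 2 wholly below, against 2.13% and 0.958% of all probes.

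Membrane skeleton and blood group genes were mostly near the floor. Of 10 tested, 4 were higher and 6 lower (median -0.28, and -0.14 over 8 without WT replicate 3), and none exceeded the floor on all 6 arrays. Xk, a blood group membrane protein gene, read 197.0, 90.3 and 47.4 in Klf4-deficient arrays and exceeded the floor on 1 WT array, at 69.7 (difference 1.19). Ank1, which encodes the ankyrin that ties band 3 to spectrin, read 67.8, 20.5 and 147.3 on WT arrays and 12.6, 13.2 and 48.0 on Klf4-deficient ones (difference -0.90, and -0.35 without WT replicate 3). Both had an adjusted p of 0.715. Rhag, Dmtn and Tmod1 were at the floor everywhere.

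Of 11 transcription factors and cofactors that work with GATA1, 9 had a higher and 2 a lower Klf4-deficient mean (median 0.27). When WT replicate 3 was left out, 6 of the 10 still tested were higher and 4 lower (median 0.17). Ldb1, a bridging cofactor of the GATA1 complex, read 148.3, 131.0 and 50.0 on WT arrays and 199.7, 276.2 and 101.2 on Klf4-deficient ones (difference 0.84, and 0.35 without WT replicate 3, adjusted p 0.715). Gfi1b, a repressor of erythroid and megakaryocyte cells, was at the floor in WT and above it on 2 Klf4-deficient arrays (38.4 and 148.7), with a difference of 0.83 that depends on the floor in both groups (adjusted p 0.715). Gata2, the GATA factor that precedes GATA1 in progenitors, was read on 5 arrays at 346.2 to 698.9 and at -1.9 in WT replicate 3. Its difference of 0.95 (adjusted p 0.733) turned to -0.47 without that array. With the other GATA genes it formed a list of 2 tested, 1 higher and 1 lower (median 0.30), of which Gata2 alone was tested without WT replicate 3. Gata5 exceeded the floor on WT replicate 3 only, at 67.2 (difference -0.36, adjusted p 0.715), and Gata3, Gata4 and Gata6 were at the floor everywhere.

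Of 10 genes downstream of the erythropoietin receptor, 4 were higher and 6 lower (median -0.19, and 0.03 without WT replicate 3). Stat5b, a transcription factor activated by the receptor and by BCR-ABL, read 160.2, 199.6 and -0.1 on WT arrays and 93.9, 293.3 and 727.6 on Klf4-deficient ones (difference 1.43, and 0.60 without WT replicate 3). Podxl, a sialomucin of progenitors, read 107.5, 47.2 and 2.8 on WT arrays and 40.1, 17.5 and 32.6 on Klf4-deficient ones (difference -0.65, and -1.04 without WT replicate 3). Both had an adjusted p of 0.715 in limma.

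Of 7 iron genes, 3 were higher and 4 lower (median -0.02, and 0.14 over 5 without WT replicate 3). Slc25a38, the mitochondrial glycine carrier that feeds haem synthesis, read 72.0, 518.6 and 804.4 in Klf4-deficient arrays and exceeded the floor on 1 WT array, at 35.1. All its Klf4-deficient values lay above all WT values (difference 3.24, adjusted p 0.715 in limma), as on 2.13% of all probes tested (389 of 18270). Of the 7 iron genes, 1 was so placed. Fth1, the ferritin heavy chain, read 1394.6, 2056.1 and 84.1 in WT and 1639.8 to 2134.5 in Klf4-deficient arrays, and its difference of 1.59 (adjusted p 0.715) became 0.14 without WT replicate 3.

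The relatives of the transporters and anhydrases were mostly at the floor. Of 13 other carbonic anhydrases with a named probe, 8 were at the floor everywhere, and of the 5 tested 1 was higher and 4 lower (median -0.12, and 0.24 over 2 without WT replicate 3). Car10 exceeded the floor only in Klf4-deficient replicate 1 (187.2) and Car12 only in WT replicate 1 (52.8). Of 11 other aquaporins, 6 were at the floor everywhere, and 1 was higher and 4 lower of those tested (median -0.16, and 0.02 over 4 without WT replicate 3), with Mip above it only in Klf4-deficient replicate 3 (222.5) and Aqp2 only in WT replicate 3 (73.8). Of 7 SLC4 transporters with a named probe, 3 were at the floor everywhere, and 2 were higher and 2 lower (median -0.06, and 0.59 over 2 without WT replicate 3), with Slc4a3 above it only in Klf4-deficient replicate 1 (132.1) and Slc4a8 only in WT replicate 3 (254.2). All 6 named relatives had an adjusted p of 0.715, and none exceeded the floor on more than 1 array.

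**Figure D3:**
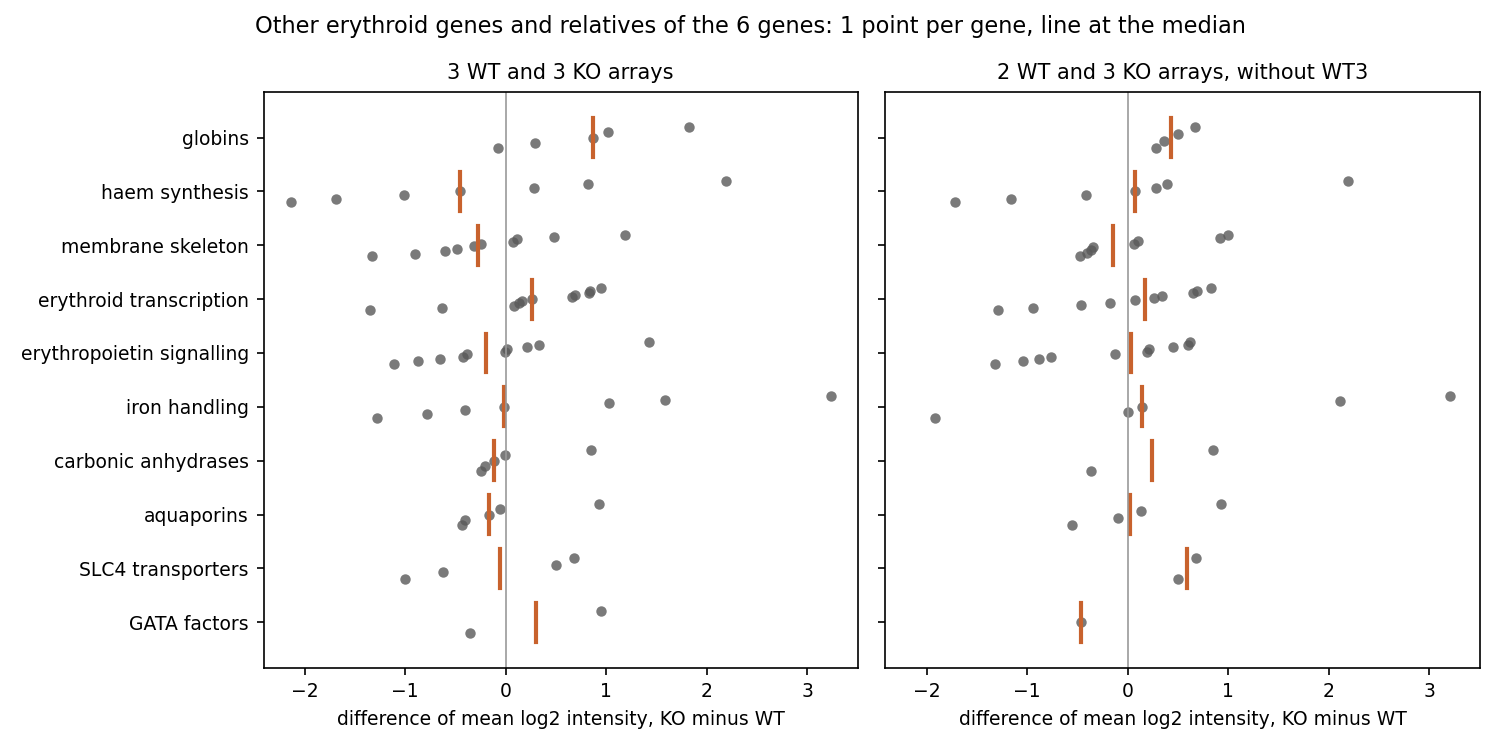
Difference of mean log2 intensity, Klf4-deficient minus WT, for the tested genes of 10 lists of other erythroid genes and relatives of the members, 1 point per gene, with orange lines at the list medians. The left panel uses all 6 arrays and the right panel leaves out WT3. Genes above the floor only in WT3 are absent on the right, and the globin median moved from 0.87 to 0.43 and the haem synthesis median from -0.45 to 0.07.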

How the data were processed

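The 6 bead arrays, 3 WT and 3 Klf4-deficient, were grouped by sample title. The authors deposited 1 intensity per probe and array, made with BeadStudio per the submitters' processing notes. How background and scaling were done is not stated in the labels. The deposited intensities ran from -31 to 37007.2, with 45.3% to 45.6% of each array at or below 0 and column medians of 1.6 to 1.7, so they had been background subtracted and put on one scale. They were used on that scale.

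A floor of 32 was set before taking log2. The 18270 probes above 32 on at least 1 array were fitted with limma 3.58.1 (lmFit, eBayes; R 4.3.3) and p-values adjusted by Benjamini-Hochberg at a threshold of 0.05. The fit was tested on simulated data. Symbols came from the platform annotation (34885 probes with 1 symbol, 18 with several, 10378 unlisted). No sequence or coordinate was used, and gene order came from the RefSeq gene list. The rule for named genes took every member probe, Klf4, called list genes or otherwise 2 per list with the smallest p, and the 2 genes most correlated with each member. Members and lists were chosen with earlier results of these data known. Alternatives were other floors, an offset, other filters, quantile normalization, 1 feature per gene, trend and robust eBayes, a replicate block and leaving out each array.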

Additional observations from a re-analysis of the deposited data

How the results depend on the processing

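No probe was called under a floor of 16 or 64, an offset of 16, quantile normalization, a percentile 75 filter, the brightest probe per gene, trend and robust eBayes, or without any 1 array. Quantile normalization left the values nearly as deposited, with the Car1 difference at 2.046 before and after, so it was hardly a separate check. With no filter 1 probe was called, and with probes averaged per gene 1 feature was called. No gene of the erythroid lists was called under any of these alternatives. Leaving out 1 array changed the sign of Aqp1 ILMN_2756486 (-1.08 to 1.08 log2), Car2 ILMN_2606746 (-0.81 to 1.04) and Gata1 ILMN_2935686 (-0.81 to 0.11). It kept that of Car1 (0.58 to 2.84), Slc4a1 (0.064 to 0.66) and Aqp1 ILMN_2980663 (-2.26 to -0.74). Car2 ILMN_2603504 stayed negative (-0.68 to -0.001), at its smallest far within its SE of 0.48. Gata1 ILMN_1237279 also stayed negative (-0.31 to -0.037), as did Aqp1 ILMN_2980661 where it was tested. Under a floor of 16 the Gata1 probe ILMN_1237279 went from -0.21 to -0.84 and Aqp1 ILMN_2980661 from -0.095 to -0.47. The mean of its 3 probes put Aqp1 at -0.56. With the replicate number as a block, 0 probes were called and the members' differences stayed the same. Their SE rose for Aqp1 ILMN_2980661 (0.17 to 0.24) and Gata1 ILMN_1237279 (0.21 to 0.26). It fell for the other tested member probes, for Slc4a1 from 0.39 to 0.25 and for Aqp1 ILMN_2980663 from 0.84 to 0.49. Same-numbered arrays deviated together at r = 0.032 to 0.04, and arrays of unlike number at -0.029 to -0.008. All of these lay below 0.1, and whether the arrays were paired cannot be told from them. The floor held 60.7% of tested values, and Epor, at it on all 6 arrays, gave no difference.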

Other observations

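The named beta and alpha globin probes were looked at 1 by 1 after their values were seen, because several probes measure the same globin transcripts. The 12 probes of Hba-a1, Hbb-b2, Hbb-bs and Hbb-bt that exceeded 100 on the 5 other arrays included 5 at the floor in WT replicate 3. Hbb-bs ILMN_1229203 read 14.9 there and 689.5 to 2279.4 on the other arrays, while Hbb-bs ILMN_2544056 read 1124.4 there. Car2 was split in the same way, as were 46 of 104 genes (44.2%) with at least 2 probes above 100 on the other 5 arrays. For each of the other arrays, 0 or 1 of 40 to 44 such genes were split. The Klf4-deficient mean was also higher on all 12 globin probes without WT replicate 3 (0.25 to 0.96 log2). Over all probes 54.9% were then higher, and the 12 are not separate observations, since several measure the same transcripts. The remaining WT arrays differed: WT replicate 1 lay below every Klf4-deficient array on 12 of 12, and WT replicate 2 lay above every Klf4-deficient array on 8 of 12 and below all of them on 1.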
